A study of Mus musculus with 12 samples.

Results

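The 9 transcription factors described here direct T cells into effector lineages, and they were followed across regulatory T cells (Treg cells) with and without Gpx4, before and after activation. They are Irf4, Batf, Maf, Prdm1, Gata3, Rora, Tbx21, Bcl6 and Id2, chosen by symbol from the 24502 genes of the deposited table, in which all 9 were listed and all 9 passed the filter on low counts. The study compared Treg cells of wild-type (WT) mice with Treg cells of Foxp3Cre Gpx4fl/fl mice, in which Cre recombinase expressed from Foxp3 removes loxP-flanked Gpx4, and these cells are called Gpx4-deficient here. All mice were 11 weeks old, and the cells were sorted. Each genotype was measured unstimulated and after 4 h of culture on wells coated with antibody (5 µg/ml, plate-bound α-CD3-CD28), which engages the T cell receptor complex and its costimulatory receptor, with 3 libraries in each of the 4 groups. The labels name no Cre for the WT mice and do not say how long unstimulated cells were kept in medium, so stimulation and culture cannot be told apart as sources of a difference. They do not say that the libraries of a group are separate animals, and p-values then measure only the spread between these libraries. The library numbers of the 2 genotypes come from separate ranges, so that genotype and any difference between those ranges cannot be told apart.

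The 12 libraries held 24629230 to 31879267 expected counts, and levels are given in CPM, counts relative to library size, scaled by the trimmed mean of M-values (TMM). Gpx4 was at 142 to 172 CPM in unstimulated and 69.2 to 107 CPM in stimulated WT libraries, against 4.97 to 12.3 CPM and 3.34 to 9.21 CPM in the Gpx4-deficient ones, in the direction of the labels (log2 fold change -4.23, adjusted p = 0.00458, and -3.62, adjusted p = 0.00171, edgeR quasi-likelihood test). Foxp3, which defines the cell type, was detected in every library. Without stimulation it was at 20.6 to 26.8 CPM in WT and 22.3 to 36.7 CPM in Gpx4-deficient libraries. With stimulation it was at 33.7 to 43.5 CPM in WT and 47.9 to 75.9 CPM in Gpx4-deficient libraries. Among stimulated cells the log2 difference was 0.76 (adjusted p = 0.193, edgeR). Its rise with stimulation had an adjusted p of 0.0325 in Gpx4-deficient and 0.187 in WT cells (edgeR). The summed level of 12 Treg and CD4 T cell markers was 5692 to 6241 CPM without stimulation and 10412 to 11560 CPM with it. Of these, Il2ra, Lrrc32, Ctla4, Tnfrsf18, Ikzf2 and Ikzf4 rose in both genotypes (adjusted p under 0.05, edgeR). Cd3d, Cd3e, Cd3g and Cd4 fell in both. The stimulated Gpx4-deficient libraries stood apart in 2 measures. Mitochondrially encoded genes took 2.84 to 3.72% of their counts, against 1.72 to 1.94% in unstimulated Gpx4-deficient libraries and 1.18 to 1.38% in the 6 WT libraries. Between 106 and 190 genes that reached 5 CPM elsewhere had a count of 0 in each of them, against 9 to 68 in the other libraries.

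In T cells, signals from the antigen receptor induce IRF4, which binds DNA together with AP-1 heterodimers that contain BATF, and the strength of that signal is read out in the amount of IRF4. Treg cells use the same factors that drive the helper T cell lineages: T-bet (encoded by Tbx21) in type 1, GATA3 in type 2, RORα (Rora) in type 17, and BCL6 and c-MAF (Maf) in follicular responses, while IRF4, BATF and BLIMP-1 (Prdm1) mark effector and tissue Treg cells. BLIMP-1 and BCL6 repress each other's genes, and ID2 lacks a DNA-binding region and blocks the E proteins that maintain the naive state.

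The 250 bases before the start site were read from the RefSeq promoter table (GRCm38.p6), which matched 8 of the 9 genes and held no window for Maf. They are shown for the 4 genes that rose with stimulation in both genotypes and for Id2, which differed between genotypes among stimulated cells. Capitals mark matches to the motifs searched, which in these windows are a TATA box (TATAAA) in Irf4, E-boxes (CANNTG) in Tbx21 and Id2, and an NFAT-type motif (GGAAAA, here on the opposite strand) in Rora.
Irf4: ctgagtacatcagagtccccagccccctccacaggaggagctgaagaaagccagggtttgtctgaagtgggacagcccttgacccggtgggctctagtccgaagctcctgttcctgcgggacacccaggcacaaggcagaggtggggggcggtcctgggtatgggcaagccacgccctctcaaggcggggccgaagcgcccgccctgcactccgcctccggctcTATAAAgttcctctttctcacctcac
Tbx21: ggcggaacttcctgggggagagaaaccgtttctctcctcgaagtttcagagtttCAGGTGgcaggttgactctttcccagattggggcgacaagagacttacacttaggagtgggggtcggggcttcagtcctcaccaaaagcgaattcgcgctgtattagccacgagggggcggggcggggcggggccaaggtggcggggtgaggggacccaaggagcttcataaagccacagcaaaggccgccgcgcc
Gata3: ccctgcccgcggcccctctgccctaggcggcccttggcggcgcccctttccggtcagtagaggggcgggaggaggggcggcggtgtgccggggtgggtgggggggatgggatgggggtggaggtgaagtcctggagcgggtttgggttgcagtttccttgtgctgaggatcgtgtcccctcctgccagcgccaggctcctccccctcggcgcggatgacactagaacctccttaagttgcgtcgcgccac
Rora: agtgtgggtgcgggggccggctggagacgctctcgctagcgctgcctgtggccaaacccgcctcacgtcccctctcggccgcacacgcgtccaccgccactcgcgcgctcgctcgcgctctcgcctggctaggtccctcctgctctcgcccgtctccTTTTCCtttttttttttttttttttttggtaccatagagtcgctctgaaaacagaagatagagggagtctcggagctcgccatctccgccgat
Id2: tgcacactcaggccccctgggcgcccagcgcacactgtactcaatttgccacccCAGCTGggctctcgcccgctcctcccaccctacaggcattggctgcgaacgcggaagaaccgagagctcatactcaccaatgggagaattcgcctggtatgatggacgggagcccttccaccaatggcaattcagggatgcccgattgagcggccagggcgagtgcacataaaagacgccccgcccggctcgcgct

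These windows are chr13:30748983-30749232 (plus strand), chr11:97115332-97115581 (minus strand), chr2:9878601-9878850 (minus strand), chr9:68653536-68653785 (plus strand) and chr12:25096093-25096342 (minus strand). The Gata3 window overlaps an exon of the antisense transcript Gm13256 in the GENCODE annotation. By that annotation the windows of Gata3, Id2 and Prdm1 and the Bcl6 window at 23981284 to 23981533 lie inside the gene. The RefSeq start used for them is therefore not the outermost annotated one. Matches were sought on both strands. For AP-1 the motif was TGANTCA, and for the cyclic AMP response element it was TGACGTCA. The IRF motif was a pair of GAAA spaced by 2 bases, and a composite motif joined the AP-1 motif to GAAA lying 4 bases after it or directly before it. The NFAT-type motif, the E-box and the TATA box were as given above. BCL6 and STAT factors were searched by TTCNNNGAA, the zinc finger factors of the GATA3 family by AGATAA, T-box factors by TCACACCT, and NF-kB by its consensus. The composite overlaps the AP-1 motif by construction. Maf had no window and was not searched. Among the promoters of the 8 matched members, TGANTCA was found in that of Prdm1 alone, from 48 to 42 bases before the start (6.75% of all 32851 promoter windows hold it). TTCNNNGAA stood in both Bcl6 promoters (7.02% of all), GGAAAA in Rora, Batf and Bcl6 (20.4%), TATAAA in Irf4 from 26 to 21 bases before the start (12.4%), AGATAA in Batf (9.99%), and CANNTG in Batf, Bcl6, Id2, Prdm1 and Tbx21 (66.2%). The cyclic AMP response element and the IRF, composite, NF-kB and T-box motifs had no match in the windows of the matched members (1.55%, 2.98%, 0.198%, 7.25% and 1.12% of all windows hold them). A match describes the letters of the window and is not evidence that a factor binds there.

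Stimulation of WT Treg cells raised 4 of the 9 factors and lowered none, by the edgeR quasi-likelihood test at a Benjamini-Hochberg adjusted p under 0.05 over 14827 genes. Of all genes tested, 6.12% were called higher and 5.41% lower in this comparison. Tbx21 and Irf4 rose most, Rora and Gata3 less. For 6 of the 9 members the 3 stimulated and 3 unstimulated WT libraries did not overlap, against 42% of all genes. The 4 comparisons between groups share libraries pairwise, so their values are given side by side and no likeness between them is drawn. The markers of other cells moved with stimulation too, and their part in these values was not tested. The 12 monocyte and macrophage markers summed to 157 to 273 CPM in unstimulated and 25.8 to 65.5 CPM in stimulated WT libraries, and to 138 to 178 CPM and 65.2 to 114 CPM in Gpx4-deficient ones, and the 12 CD8 T and NK cell markers to 119 to 146 CPM, 48.8 to 60.2 CPM, 74.1 to 120.3 CPM and 37.7 to 40.2 CPM in the same order. Fcgr1, Ms4a7 and Itgam of the first list were at 0 in stimulated WT libraries, and Klra8 and Klre1 of the second in unstimulated WT libraries. Sums for 3 more lists were lower in every stimulated than in every unstimulated WT library: B cells (60.7 to 85.99 CPM without and 17.3 to 24.96 CPM with stimulation), conventional CD4 T cells (680.2 to 713 CPM without and 249 to 314 CPM with stimulation) and stroma (177 to 193 CPM without and 91.99 to 108 CPM with stimulation). Single genes of the conventional CD4 T cell list went both ways, and 6 of 9 had a positive log2 change. Cd40lg (1.98), Il2 (7.19) and Il17a (at 0 without stimulation) were called higher. Tcf7 (-2.37) and Igfbp4 (-4.98) were called lower. Sums for 9 measured markers of group 2 innate lymphoid and mast cells were higher (33.5 to 48.5 CPM without and 106 to 153 CPM with stimulation, with Gata2 and Fcer1a at 0 in both groups), as were those for plasma cells (289.6 to 329 CPM without and 479 to 515 CPM with stimulation, with Tnfrsf17 at 0 in both groups). In Gpx4-deficient cells both of the latter sums were also higher with stimulation, at 24.8 to 48.9 CPM and 74.1 to 265 CPM and at 274 to 361 CPM and 628 to 701 CPM. Of 8 tested plasma cell markers, 3 had a positive and 5 a negative log2 change in WT cells. In Gpx4-deficient cells 6 were positive and 2 negative. Xbp1 was called higher in both genotypes (0.99 and 1.25), and Ssr4 (1.01) in Gpx4-deficient cells. Dendritic cell markers were lower in stimulated WT (489 to 709 CPM without and 322 to 469 CPM with stimulation) and higher in Gpx4-deficient libraries (574 to 626 CPM without and 637 to 897 CPM with stimulation), and neutrophil sums overlapped between states in both genotypes.

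Irf4 (chromosome 13, 30749226 to 30766976, plus strand, GRCm38) is the factor whose dose follows T cell receptor signalling. Its level was 63.9, 48.9 and 46.6 CPM in the unstimulated WT libraries (replicates 1 to 3) and 786, 686 and 737 CPM in the stimulated ones. Every stimulated library was above every unstimulated one, and the means were 53.1 ± 9.38 CPM and 736 ± 50.2 CPM (SD, n = 3 each). This is a 13.9-fold rise (log2 change of 3.79 with SE 0.15, adjusted p = 4.28e-08, edgeR). In Gpx4-deficient cells it went from 50.8, 56.8 and 48.5 CPM to 793, 955 and 976 CPM. The groups were again fully apart, with a 17.5-fold rise (log2 change of 4.13 with SE 0.15, adjusted p = 2.38e-08, edgeR).

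Tbx21 (chromosome 11, 97098071 to 97115331, minus strand) encodes T-bet, the factor of type 1 responses that also equips Treg cells to follow type 1 inflammation. It was scarce without stimulation, at 15.9, 17.9 and 12.2 CPM in WT libraries, and stood at 339, 241 and 229 CPM after it. Every stimulated library was far above every unstimulated one, and the rise was 17.5-fold (log2 change of 4.13 with SE 0.34, adjusted p = 7.11e-06, edgeR). In Gpx4-deficient cells its level was 10.02, 22.7 and 11.6 CPM without and 169.9, 229 and 245 CPM with stimulation. Replicate 2 was the highest of its group before stimulation, and the groups did not overlap, with a 14.5-fold rise (log2 change of 3.86 with SE 0.33, adjusted p = 1.17e-05, edgeR).

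Rora (chromosome 9, 68653786 to 69388246, plus strand) encodes a nuclear receptor used by type 17 cells, by group 2 innate lymphoid cells and by Treg cells of the skin. It rose from 94.9, 73.5 and 73.03 CPM to 280.2, 301 and 267 CPM in WT cells. The groups were fully apart (log2 change of 1.81 with SE 0.18, adjusted p = 3.50e-05, edgeR). In Gpx4-deficient cells it rose from 97.8, 112 and 106 CPM to 269, 425 and 402 CPM, where replicate 1 was the lowest of the stimulated libraries and still above all unstimulated ones (log2 change of 1.79 with SE 0.18, adjusted p = 4.14e-05, edgeR). Gata3 (chromosome 2, 9857078 to 9890034, minus strand) encodes the zinc finger factor of type 2 responses, which Treg cells also need to keep their identity under inflammation. It was already abundant, at 293, 248 and 269 CPM in unstimulated WT libraries, and stood at 557, 681 and 626 CPM after stimulation. This was a 2.300-fold rise with no overlap of the groups (log2 change of 1.20 with SE 0.14, adjusted p = 9.68e-05, edgeR). In Gpx4-deficient cells it rose from 401, 309 and 282 CPM to 632, 637 and 612 CPM (log2 change of 0.92 with SE 0.14, adjusted p = 0.000702, edgeR). Other annotated genes overlap Gata3 and Rora, and those listed in the table had a mean of 0.0256 to 0.111 CPM.

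**Figure D1:**
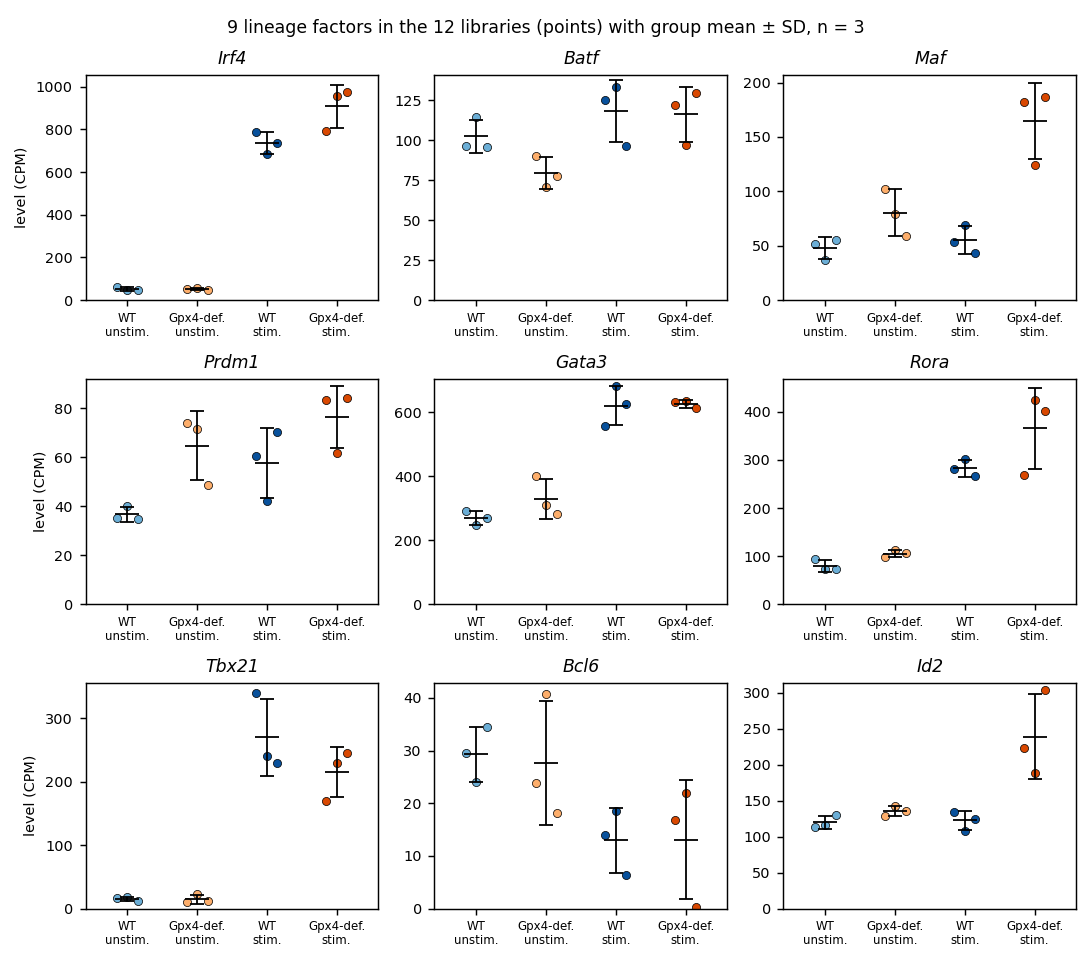
Level of each of the 9 factors (CPM, linear axis from 0, each panel with its own scale) in the 12 libraries, with points for libraries and horizontal lines with bars for the group mean ± SD (n = 3). Irf4, Tbx21, Rora and Gata3 are higher in all stimulated libraries of both genotypes, while Maf and Id2 are highest in the 3 stimulated Gpx4-deficient libraries.

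In Gpx4-deficient cells 6 of the 9 factors rose with stimulation and none fell, beside 7.45% of all genes called higher and 7.83% called lower. The groups did not overlap for 7 members, against 29.8% of all genes. The 6 were the 4 factors above together with Id2 and Maf. Id2 (chromosome 12, 25093799 to 25097140, minus strand) went from 128, 143 and 136 CPM to 224, 188 and 304 CPM in these cells. All stimulated libraries were above all unstimulated ones (log2 change of 0.82 with SE 0.18, adjusted p = 0.00838, edgeR), and the call held without any 1 of the 6 libraries but not in a fit of the 2 groups alone (adjusted p = 0.0628). In WT cells Id2 was at 113, 116 and 129.9 CPM before and 135, 109 and 124 CPM after stimulation, groups that overlapped (log2 change of 0.03 with SE 0.18, adjusted p = 0.956, edgeR). Maf (chromosome 8, 115682942 to 115707794, minus strand) encodes c-MAF, a bZIP factor that activates Il10 and acts in follicular and gut Treg cells. It went from 103, 79.4 and 59.4 CPM to 182, 124 and 187 CPM in Gpx4-deficient cells, with the groups apart (log2 change of 1.03 with SE 0.27, adjusted p = 0.0232, edgeR). That call was lost when unstimulated replicate 2 or 3 or stimulated replicate 1 or 3 of the Gpx4-deficient cells was left out (adjusted p up to 0.0895), and in a fit of the 2 groups alone (adjusted p = 0.0706). A replicate block nested in genotype ended it too (adjusted p = 0.0754, edgeR). In WT cells Maf was at 51.3, 36.9 and 55.5 CPM and 53.8, 68.7 and 43.6 CPM, which overlap (log2 change of 0.21 with SE 0.27, adjusted p = 0.756, edgeR).

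Batf, Prdm1 and Bcl6 were not called in either genotype. Batf (chromosome 12, 85686669 to 85709087, plus strand), the AP-1 partner of IRF4, was at 96.5, 114 and 95.9 CPM in unstimulated and 125, 133 and 96.3 CPM in stimulated WT libraries. These overlap (log2 change of 0.21 with SE 0.19, adjusted p = 0.608, edgeR). In Gpx4-deficient cells Batf was at 90.3, 70.4 and 77.6 CPM and 122, 96.7 and 129.6 CPM, where the groups did not overlap but the test missed the threshold (log2 change of 0.55 with SE 0.19, adjusted p = 0.0701, edgeR). DESeq2 called this difference (0.55, adjusted p = 0.0226), as did edgeR without stimulated Gpx4-deficient replicate 2 (0.67, adjusted p = 0.0345). Prdm1 (chromosome 10, 44437177 to 44528501, minus strand) encodes BLIMP-1, a repressor that marks effector Treg cells. It was at 35.3, 40.2 and 34.7 CPM before and 60.5, 42.1 and 70.04 CPM after stimulation in WT cells, with no overlap (log2 change of 0.65 with SE 0.26, adjusted p = 0.146, edgeR). In Gpx4-deficient cells Prdm1 was at 73.9, 71.6 and 48.5 CPM and 83.4, 61.8 and 84.2 CPM, and the groups overlapped (log2 change of 0.24 with SE 0.25, adjusted p = 0.594, edgeR). Bcl6 (chromosome 16, 23965052 to 23988852, minus strand), the repressor of the follicular programme, was the scarcest member after stimulation. Its level was 29.5, 24.00 and 34.4 CPM in unstimulated and 13.9, 18.6 and 6.35 CPM in stimulated WT libraries. Every stimulated WT library was below every unstimulated one, with a wide error (log2 change of -1.18 with SE 0.93, adjusted p = 0.543, edgeR). In Gpx4-deficient cells Bcl6 was at 23.8, 40.8 and 18.2 CPM without and 16.9, 21.9 and 0.377 CPM with stimulation (log2 change of -1.08 with SE 0.93, adjusted p = 0.496, edgeR). The value of stimulated Gpx4-deficient replicate 3 rests on 10 counts, and the SE of every Bcl6 comparison was at least 0.92.

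**Figure D2:**
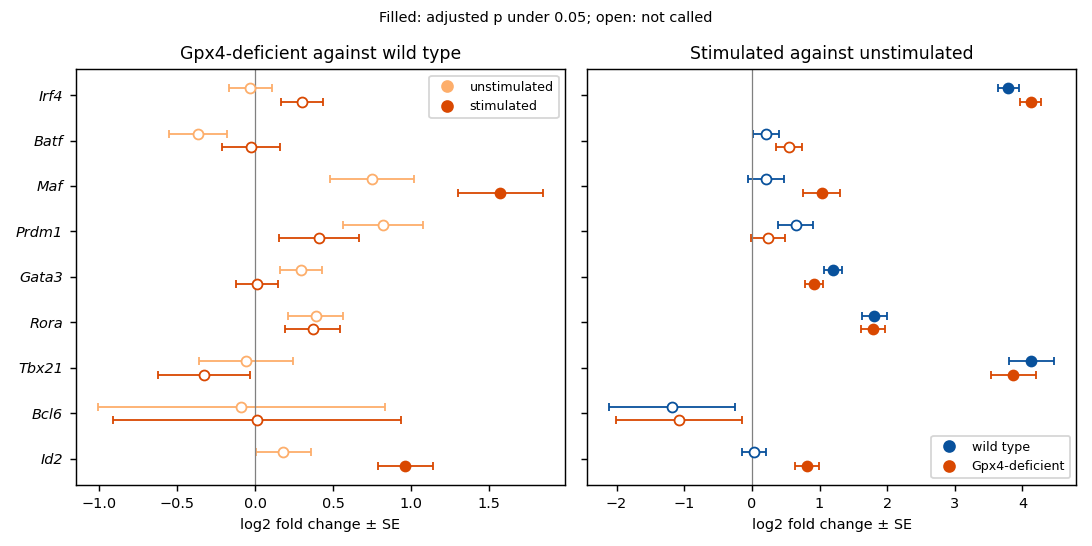
Log2 fold changes ± SE from the edgeR fit of 12 libraries for the 9 factors, with Gpx4-deficient against WT cells on the left and stimulated against unstimulated cells on the right (linear axes of different ranges). Filled points passed an adjusted p under 0.05: Maf and Id2 on the left in stimulated cells, and on the right 4 factors in WT and 6 in Gpx4-deficient cells.

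Among stimulated cells, Maf and Id2 were higher without Gpx4, and none of the other 7 factors passed the test. This is 2 of 9 members called higher and 0 lower, where 1.03% of all genes were called higher and 1.25% lower. Maf was at 53.8, 68.7 and 43.6 CPM in WT and 182, 124 and 187 CPM in Gpx4-deficient stimulated libraries. Every Gpx4-deficient library was above every WT one, and the means were 55.4 ± 12.6 CPM and 164 ± 34.9 CPM (SD, n = 3 each), a 2.97-fold difference (log2 change of 1.57 with SE 0.27, adjusted p = 0.0134, edgeR). Id2 was at 135, 109 and 124 CPM in WT and 224, 188 and 304 CPM in Gpx4-deficient stimulated libraries. These groups did not overlap either, and the difference was 1.95-fold (log2 change of 0.96 with SE 0.18, adjusted p = 0.0179, edgeR). The Maf call was lost without stimulated WT replicate 1 (adjusted p = 0.0663) or replicate 3 (adjusted p = 0.0571), and the Id2 call without stimulated WT replicate 2 (adjusted p = 0.0567). In a fit of the 2 stimulated groups alone neither passed (adjusted p = 0.110 for Maf and 0.165 for Id2), while the log2 differences stayed at 1.58 and 0.97.

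Other measures moved with genotype in the same libraries, and their part in the Maf and Id2 differences was not tested. The share of mitochondrially encoded counts was 2.84 to 3.72% in the stimulated Gpx4-deficient libraries and 1.18 to 1.37% in the stimulated WT ones. The summed level of 12 dendritic cell markers was 637 to 897 CPM against 322 to 469 CPM, with Clec9a and Cd209a at 0 in the first group and Siglech at 0 in the second. Most of it was Cd74, the chaperone of MHC class II, at 510.0 to 603 CPM against 216 to 299.7 CPM. The 10 plasma cell markers summed to 628 to 701 CPM against 479 to 515 CPM, with Tnfrsf17 at 0 in both groups and Jchain at 85.3 to 131 CPM against 15.8 to 25.2 CPM. The 12 monocyte and macrophage markers summed to 65.2 to 114 CPM against 25.8 to 65.5 CPM, ranges that just overlapped. Of these markers, Fcgr1 was at 0 in both groups, Mertk at 0 in the first and Ms4a7 and Itgam at 0 in the second. The 12 CD8 T and NK cell markers went the other way, with 37.7 to 40.2 CPM against 48.8 to 60.2 CPM; Ncr1, Klrd1 and Gzma were at 0 in the Gpx4-deficient group and Cd8a in the WT group. Sums for B cells, neutrophils, group 2 innate lymphoid and mast cells, conventional CD4 T cells and stroma overlapped between the stimulated genotypes (5.49 to 67.4 CPM, 4.88 to 57.3 CPM, 74.1 to 265 CPM, 287 to 322 CPM and 52.9 to 93.8 CPM in the Gpx4-deficient group, against 17.3 to 24.96 CPM, 21.4 to 76.9 CPM, 106 to 153 CPM, 249 to 314 CPM and 91.99 to 108 CPM in the WT group). In these bulk libraries, more cells that express a factor and more of its RNA per cell cannot be told apart.

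Irf4 was the third factor whose stimulated groups did not overlap (3 of 9 members, against 20.1% of all genes). Its means were 736 ± 50.2 CPM in WT and 908 ± 100.3 CPM in Gpx4-deficient cells, with Gpx4-deficient replicate 1 at 792.6 CPM only just above WT replicate 1 at 786.4 CPM, and the difference missed the threshold (log2 change of 0.30 with SE 0.14, adjusted p = 0.267, edgeR). Rora was at 280.2, 301 and 267 CPM in WT and 269, 425 and 402 CPM in Gpx4-deficient cells. Gpx4-deficient replicates 2 and 3 were above all WT libraries and replicate 1 was among them (log2 change of 0.37 with SE 0.18, adjusted p = 0.291, edgeR); without that replicate the difference was called (0.60, adjusted p = 0.0469). Prdm1 (0.41, SE 0.25), Tbx21 (-0.33, SE 0.30), Batf (-0.03, SE 0.19), Gata3 (0.01, SE 0.13) and Bcl6 (0.01, SE 0.92) had log2 differences with adjusted p from 0.426 to 1 (edgeR).

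Among unstimulated cells, none of the 9 factors passed the edgeR test between genotypes, and DESeq2 and limma-voom called none either. By edgeR 0.054% of all genes were called higher and 0.0135% lower, by DESeq2 1.2% were called and by limma-voom 0.142%. At an unadjusted p under 0.05 (edgeR), 3 of 9 members passed, against 5.8% of all genes. The groups did not overlap for 4 members (Maf, Prdm1, Rora and Batf), against 18.3% of all genes. Prdm1 was at 35.3, 40.2 and 34.7 CPM in WT and 73.9, 71.6 and 48.5 CPM in Gpx4-deficient libraries, a 1.76-fold difference in the means that missed the adjusted threshold (log2 change of 0.82 with SE 0.26, adjusted p = 0.592, edgeR). Maf was at 51.3, 36.9 and 55.5 CPM in WT and 103, 79.4 and 59.4 CPM in Gpx4-deficient libraries, where replicate 3 of the latter was close to the highest WT library (log2 change of 0.75 with SE 0.27, adjusted p = 0.731, edgeR). Rora was at 94.9, 73.5 and 73.03 CPM against 97.8, 112 and 106 CPM (log2 change of 0.39 with SE 0.18, adjusted p = 0.861, edgeR). Batf was the member of these 4 with a lower mean in Gpx4-deficient cells, 79.4 ± 10.1 CPM against 102 ± 10.5 CPM (SD, n = 3 each; log2 change of -0.36 with SE 0.19, adjusted p = 0.915, edgeR). Gata3 had a log2 difference of 0.29 (SE 0.13), Id2 of 0.18 (SE 0.18), Irf4 of -0.03 (SE 0.14), Tbx21 of -0.06 (SE 0.30) and Bcl6 of -0.09 (SE 0.92). In these unstimulated groups the 10 neutrophil markers summed to 1.300 to 8.08 CPM in Gpx4-deficient and 47.2 to 171 CPM in WT libraries, with Ly6g and Cxcr2 at 0 in both, and the share of mitochondrially encoded counts was 1.72 to 1.94% against 1.21 to 1.38%. The part of either in any member's value was not tested.

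Whether stimulation acted differently in the 2 genotypes was tested by the interaction, that is, by subtracting the WT response from the Gpx4-deficient one. No member passed (0 of 9 by edgeR, DESeq2 and limma-voom). By edgeR 0.027% of all genes were called higher and 0.175% lower, by DESeq2 2.56% were called and by limma-voom 0%. At an unadjusted p under 0.05 (edgeR), 1 of 9 members passed, against 8.75% of all genes. Id2 came nearest, with a log2 difference of 0.78 (SE 0.25, adjusted p = 0.389, edgeR), followed by Maf (0.82, SE 0.38, adjusted p = 0.574, edgeR). For Irf4 the value was 0.33 (SE 0.19), for Batf 0.34 (SE 0.26), for Prdm1 -0.41 (SE 0.36), for Gata3 -0.28 (SE 0.19), for Tbx21 -0.27 (SE 0.42), for Rora -0.02 (SE 0.25) and for Bcl6 0.10 (SE 1.30). Maf and Id2 were thus called for stimulation in Gpx4-deficient cells and not in WT cells, and the test of that difference itself was not passed.

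Per kilobase of annotated exon, which allows genes to be compared with each other, the order of the factors changed with stimulation. In unstimulated WT cells Batf (72.7 CPM per kilobase) and Gata3 (67.9) led and overlapped, followed by Id2 (49.1) and Irf4 (10.8), each apart from its neighbours. Prdm1, Tbx21, Rora, Maf and Bcl6 formed a low group from 6.58 down to 4.38 in which neighbours overlapped. After stimulation of WT cells Gata3 (156 CPM per kilobase) and Irf4 (150.2) led and overlapped, Tbx21 (108) and Batf (84.0) came next and overlapped, and Id2 (50.2), Rora (21.6), Prdm1 (10.3), Maf (6.72) and Bcl6 (1.93) followed. In unstimulated Gpx4-deficient cells the order was Gata3 (83.2), Batf (56.5), Id2 (55.6), Prdm1 (11.6), Irf4 (10.6), Maf (9.76), Rora (8.05), Tbx21 (5.94) and Bcl6 (4.12), all per kilobase, and only Gata3 from Batf and Id2 from Prdm1 were neighbours without overlap. In stimulated Gpx4-deficient cells Irf4 (185) stood apart from Gata3 (158), and Id2 (97.9) was level with Tbx21 (86.3) and Batf (82.6) within the range of the libraries. Maf (19.9 CPM per kilobase) overlapped Rora (27.9) and Prdm1 (13.7) there, and Bcl6 (1.95) was last.

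**Figure D3:**
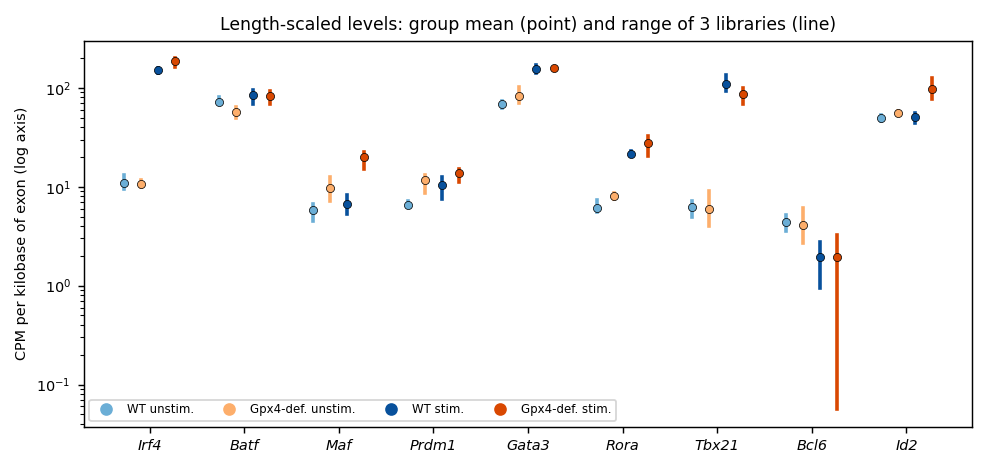
Levels scaled to exon length (CPM per kilobase, log axis) of the 9 factors, with points for group means and vertical lines for the range of the 3 libraries. In stimulated cells Irf4 and Tbx21 stand near Gata3 and Batf, well above their unstimulated levels, and the line of Bcl6 in stimulated Gpx4-deficient cells reaches down to replicate 3.

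Ratios of counts within a library do not depend on scaling between libraries, and they compare each factor with a partner or rival. Irf4 to Batf, the partners at AP-1 and IRF sites, was 0.428 to 0.662 in unstimulated and 5.16 to 7.65 in stimulated WT libraries. In Gpx4-deficient libraries the ratio was 0.562 to 0.807 and 6.49 to 9.88. The genotypes overlapped in both states, and the states did not overlap in either genotype. Irf4 to Irf8, its closest relative, was 0.889 to 1.01 in stimulated WT libraries and 1.22 to 2.31 in stimulated Gpx4-deficient ones, which did not overlap. Without stimulation this ratio was 0.534 to 0.781 in WT and 0.505 to 0.909 in Gpx4-deficient libraries, below every stimulated library of the same genotype. Irf8 itself was at 802, 772 and 726 CPM in stimulated WT and 647, 518 and 422 CPM in stimulated Gpx4-deficient libraries. Id2 to Id3, the paired inhibitors of E proteins, was 0.628 to 0.763 and 0.554 to 0.6704 in unstimulated WT and Gpx4-deficient libraries and 2.82 to 5.18 and 6.55 to 10.1 in the stimulated ones. Counts of Id3 thus exceeded those of Id2 in every unstimulated library, and the reverse held in all 6 stimulated ones, without scaling to gene length. In WT cells the log2 change with stimulation was 0.03 for Id2 and -2.53 for Id3. Id3 was at 30.1, 38.4 and 24.02 CPM in stimulated WT and 34.2, 26.97 and 30.2 CPM in stimulated Gpx4-deficient libraries, which overlap, and the 2 stimulated genotypes did not overlap in the ratio. Maf to Gata3 was 0.149 to 0.206 and 0.2105 to 0.257 without stimulation and 0.0697 to 0.101 and 0.195 to 0.305 with it, in the same order of genotypes. The ratio was lower in every stimulated than in every unstimulated WT library. Tbx21 to Gata3 was 0.354 to 0.609 in stimulated WT and 0.269 to 0.4004 in stimulated Gpx4-deficient libraries, which overlap. The 9 factors together took 0.0735 to 0.0801% of counts in unstimulated WT, 0.0787 to 0.0970% in unstimulated Gpx4-deficient, 0.221 to 0.232% in stimulated WT and 0.247 to 0.281% in stimulated Gpx4-deficient libraries.

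**Figure D4:**
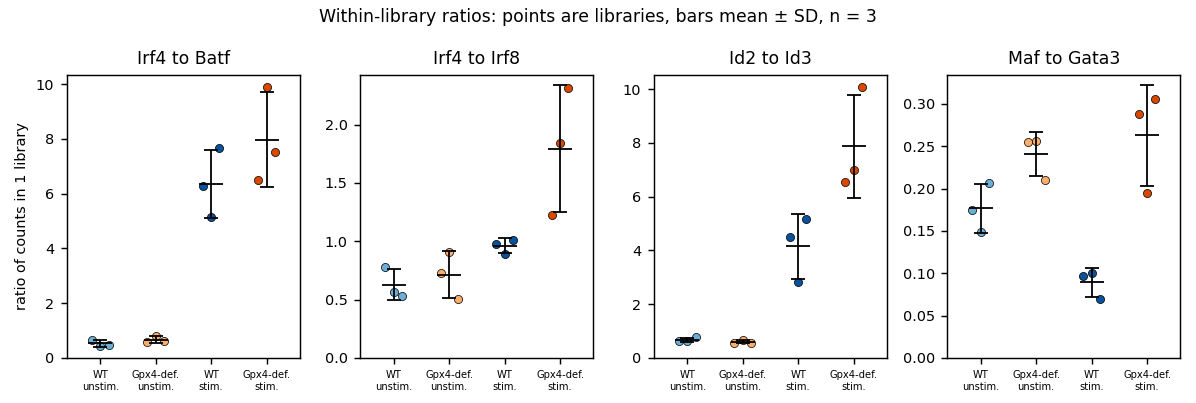
Within-library ratios of counts (linear axes from 0) in the 12 libraries, with points for libraries and lines with bars for the mean ± SD (n = 3). Irf4 to Batf, Irf4 to Irf8 and Id2 to Id3 separate stimulated from unstimulated libraries in both genotypes. Irf4 to Irf8, Id2 to Id3 and Maf to Gata3 separate the stimulated genotypes, and Maf to Gata3 also separates the unstimulated ones.

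Genes that act with or against the factors were counted in lists drawn up from general knowledge with earlier results of these data known, so that their counts describe these libraries. Of 25 tested partners (AP-1, STAT, NFAT, IRF and RUNX family members), stimulation of WT cells raised 10 and lowered 7. Irf8 rose (log2 fold change 3.17, adjusted p = 5.53e-07, edgeR), as did the STAT genes Stat3 (1.94) and Stat5a (2.51), and Fos, an AP-1 subunit of the immediate early response, was lower at -3.55 (adjusted p = 4.45e-08, edgeR). In Gpx4-deficient cells 10 rose and 7 fell, among them Fos (-5.56), Jun (-3.27) and Junb (-2.11), with Irf8 at 2.80. Jun (-2.03) and Junb (-0.84) were among the 7 that fell in WT cells too. Between genotypes, Fos (1.14, adjusted p = 0.00785, edgeR) and Jun (1.09, adjusted p = 0.0243, edgeR) were the 2 of 25 called without stimulation, both higher in Gpx4-deficient cells. The Jun call was lost whichever of the 6 libraries was left out, and the Fos call without unstimulated WT replicate 1 or 2 or Gpx4-deficient replicate 2. Neither was called in an edgeR fit with a replicate block (adjusted p = 0.0516 for Fos and 0.110 for Jun). With stimulation Nfatc2 was higher (1.39, adjusted p = 0.0328, edgeR) and Fos (-0.86) and Junb (-0.80) were lower. The Fos and Junb calls were lost without stimulated WT replicate 1 or 2, and the Nfatc2 call without stimulated WT replicate 1 or 3 or Gpx4-deficient replicate 2. Fos (adjusted p = 0.105) and Nfatc2 (adjusted p = 0.0766) were also not called by limma-voom.

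Of 19 factors that oppose effector fate or hold the naive state, 4 rose and 6 fell with stimulation in WT cells and 5 rose and 5 fell in Gpx4-deficient cells. Id3, the E protein inhibitor of naive and follicular cells, was lower after stimulation in both (log2 fold change -2.53 in WT and -2.90 in Gpx4-deficient cells). Tcf7, which encodes the naive-state factor TCF1, and Lef1, its relative, were also lower in both (-2.37 and -1.64, and -0.87 and -1.57). Ikzf2, which encodes the Treg factor Helios, rose in both (0.82 and 1.33) and was the 1 of 19 that differed between stimulated genotypes (0.61, adjusted p = 0.0203, edgeR), a call lost without stimulated WT replicate 1 or 3. Without stimulation 0 of 19 were called between genotypes (2 at an unadjusted p under 0.05, 0 by DESeq2 and by limma-voom). Of 19 other tested lineage and activation factors, 9 rose in WT and 10 in Gpx4-deficient cells and none fell, including Egr2 (3.26 and 2.79), Hif1a (2.0 and 2.20), Zeb1 (2.39 and 2.53) and Nr4a1 (3.01 and 1.73). Nr4a1, an orphan nuclear receptor gene induced by the T cell receptor, was the 1 of 19 called between stimulated genotypes. Its level was 3143, 3185 and 3195 CPM in WT and 1819.8, 1466 and 1462 CPM in Gpx4-deficient libraries, a log2 difference of -1.0 (adjusted p = 0.00187, edgeR) that held without any 1 library. Without stimulation 0 of 19 were called (3 at an unadjusted p under 0.05, 0 by DESeq2 and by limma-voom).

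With stimulation, of 20 type 1 genes, 5 rose and 1 fell in WT cells and 5 rose and 4 fell in Gpx4-deficient cells. Among them were the chemokine gene Ccl4 (5.64 and 3.59), the interferon receptor gene Ifngr1 (1.70 and 1.97) and Stat4 (1.45 and 1.41), while the cytotoxic granule gene Nkg7 was lower in Gpx4-deficient cells at -2.57, a call lost in a fit of the 2 groups alone (adjusted p = 0.0533), and had a log2 change of -1.44 in WT cells (adjusted p = 0.0756, edgeR). Of 15 tested type 2 genes, 6 rose in WT and 8 in Gpx4-deficient cells and none fell, among them Ccr8, a chemokine receptor gene of tissue Treg cells (3.04 and 3.11), and Cish, a cytokine feedback inhibitor (1.60 and 1.64). Of 18 type 17 genes, 4 rose and 1 fell in each genotype. Il17f was at 0.0371 to 0.0774 CPM in unstimulated and 40.5, 8.81 and 23.4 CPM in stimulated WT libraries, and at 0 to 0.151 CPM and 2.15, 54.2 and 37.1 CPM in Gpx4-deficient ones, with a wide spread after stimulation. Il22 had no count in the unstimulated WT libraries and was at 6.71, 4.67 and 2.95 CPM after stimulation, against 11.1, 14.1 and 27.1 CPM in stimulated Gpx4-deficient libraries. The chemokine gene Ccl20 was at 41.5 to 45.9 CPM and 7.81 to 38.8 CPM in the stimulated WT and Gpx4-deficient libraries and at 0.371 to 0.591 CPM and 0.0351 to 0.604 CPM in unstimulated ones, and Il6ra, the receptor for interleukin-6, was at -2.76 and -2.08 on the log2 scale. Between genotypes none of the 20 type 1, 15 type 2 and 18 type 17 genes was called by edgeR without stimulation (3, 0 and 1 at an unadjusted p under 0.05, 1, 0 and 0 by DESeq2, 0 of each by limma-voom) or with it (6, 2 and 3 unadjusted, 5, 2 and 1 by DESeq2, 0, 1 and 0 by limma-voom, beside 18.3%, 10.3% and 3.19% of all genes).

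Of 30 tested genes of effector Treg cells, 16 rose and 5 fell with stimulation in WT cells and 18 rose and 3 fell in Gpx4-deficient cells. Il2ra, the interleukin-2 receptor alpha chain (2.27 and 2.49), and Tnfrsf9, which encodes 4-1BB (3.55 and 3.80), were among them. Between stimulated genotypes 5 of 30 were called, all higher in Gpx4-deficient cells, beside the 1.03% of all genes. The median of the 30 log2 differences was 0.26, against 0 over all genes. Icos, the costimulatory receptor of effector and follicular cells, was at 947, 974 and 928 CPM in WT and 1823, 1834 and 2265 CPM in Gpx4-deficient libraries, fully apart (1.06, adjusted p = 0.000582, edgeR). Itgae, the integrin CD103 of tissue Treg cells, was at 62.8, 105 and 86.3 CPM and 179.8, 225 and 185 CPM (1.22, adjusted p = 0.00832, edgeR), although stimulation had lowered it in both genotypes. Il1r2, the decoy receptor for interleukin-1, was at 414, 404 and 328 CPM and 560.5, 640.4 and 722 CPM (0.75, adjusted p = 0.0134, edgeR). These 3 calls held without any 1 of the 6 libraries. Ikzf2 and Tigit (0.80, adjusted p = 0.0314, edgeR), the latter named after its values were seen, were the other two. In a fit of the 2 stimulated groups alone Icos and Nr4a1 were still called, and Itgae, Il1r2, Ikzf2, Fos, Junb, Nfatc2 and Ccr7 were not (adjusted p from 0.119 to 0.197). Without stimulation 0 of the 30 were called (5 at an unadjusted p under 0.05, 2 by DESeq2, 0 by limma-voom).

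Of 18 genes of follicular cells, 6 rose and 3 fell in WT cells and 5 rose and 2 fell in Gpx4-deficient cells with stimulation, among them Pdcd1, which encodes PD-1 (1.76 and 1.61). Between stimulated genotypes Icos and Il1r2 were called, 2 of 18, and both belong also to the effector Treg list. Of 19 genes known to be repressed by BCL6 or BLIMP-1, 8 rose and 7 fell in each genotype, with Myc up (2.31 and 2.32) and S1pr1, the receptor for lymph node exit, down (-1.78 and -1.11). Ccr7, the homing receptor of naive and central cells, was the 1 of 19 lower in stimulated Gpx4-deficient cells (-0.64, adjusted p = 0.0358, edgeR), a call lost without stimulated WT replicate 1 or 3 or Gpx4-deficient replicate 2 or 3. A replicate block also ended the Ccr7 call (adjusted p = 0.0687, edgeR). Without stimulation 0 of 18 follicular and 0 of 19 repressed genes were called (3 and 6 at an unadjusted p under 0.05, 1 and 2 by DESeq2, 0 and 0 by limma-voom, beside 5.8%, 1.2% and 0.142% of all genes).

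**Figure D5:**
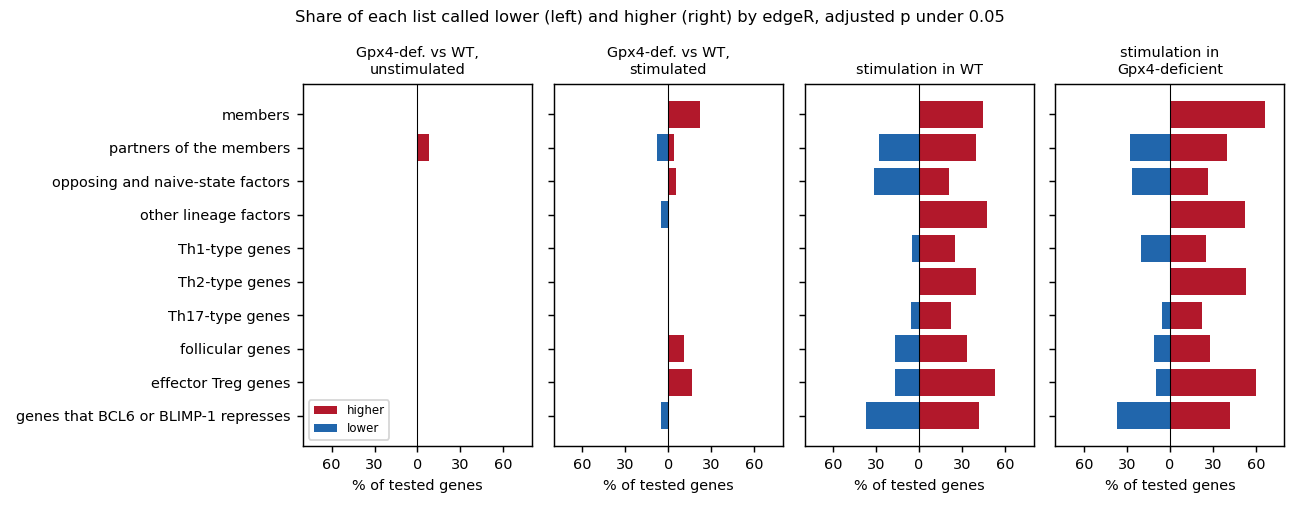
Share of the tested genes of each list (percent) called lower (blue, left) or higher (red, right) by edgeR at an adjusted p under 0.05, in the 4 comparisons between groups. Stimulation moved genes of every list in both genotypes, whereas between genotypes the calls were 2 of 25 partner genes without stimulation and, with it, a few genes of the lists shown with bars.

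The genes whose levels ran most like each factor were ranked by Pearson r of log2 CPM over the 12 libraries among 8243 genes whose log2 CPM averaged 3 or more. The libraries fall into 4 groups, so that r mainly reflects differences between groups, and it is given as a description. Irf4 ran with Il2ra (0.996), Nabp1 (0.994) and Hif1a (0.994), and Tbx21 with Kpna1 (0.991), Hif1a (0.991) and Got1 (0.990). Gata3 ran with Slc41a1, Dusp5 and Slc7a1 (0.982 to 0.979), and Rora with Il1r2, Mir155hg and Nol10 (0.982 to 0.980). Maf ran with the mitochondrially encoded mt-Nd5 (0.950), mt-Co2 (0.941) and mt-Nd4 (0.937), and Id2 with mt-Nd4 (0.949), Itsn2 (0.946) and mt-Nd1 (0.942), the transcripts whose share was high in the stimulated Gpx4-deficient libraries. Bcl6 ran with Hdac6, Mad2l1 and Nemp2 (0.975 to 0.973), Batf with Anp32e, Myo1c and Pak4 (0.927 to 0.891), and Prdm1 with Ankrd17, Ascc3 and Rc3h1 (0.917 to 0.891).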

How the data were processed

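RNA was sequenced from 12 libraries of sorted mouse Treg cells, made from 600 ng of RNA each with a stranded mRNA kit, per the labels. The authors deposited RSEM gene-level expected counts for 24502 gene symbols. Per the submitters' processing notes the reads were placed on GRCm38, with aligner, annotation and strand setting of the counting not given in the sources used here. Between 14.8 and 18.1% of values in a library were not whole, and counts were rounded before testing. Library totals ran from 24629230 to 31879267, so that 1 CPM is 24.6 to 31.9 reads.

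Under R 4.3.3, the quasi-likelihood F test of edgeR 4.0.16 was used with TMM scaling and robust dispersion on the 14827 genes that filterByExpr kept, in one fit of 4 group means over all 12 libraries with 8 residual degrees of freedom. A gene was called at a Benjamini-Hochberg adjusted p under 0.05 over all genes tested, and each SE was derived from the F statistic. Alternatives were other scalings and filters, DESeq2 1.42.0, limma-voom (limma 3.58.1), dispersion without robust fitting, a replicate block, fits of 2 groups alone and leaving out each library. Coordinates and exon lengths are from the GENCODE annotation of GRCm38, and promoters from RefSeq, of which only the bases before the start were used.

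The members and the gene lists were chosen with earlier results of these data known. Genes outside the 9 factors were named by rule: up to 4 called genes per list and comparison in order of adjusted p, the 3 genes most like each factor, and Gpx4 and Foxp3; marker genes and Tigit were named after their values were seen. Not every gene the rule picks is described.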

Additional observations from a re-analysis of the deposited data

Results flagged for a closer look

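The stimulation response differed between genotypes by the interaction test for 5 genes of the lists, none of them among the 9 factors. Each value is the log2 response in Gpx4-deficient cells less the one in WT cells, with adjusted p from edgeR, and no explanation was tested. For Fos the difference was -2.01 (adjusted p = 0.00206), with levels of 3233 to 3408 CPM and 1384 to 1728 CPM in unstimulated and 55.8 to 81.03 CPM and 116 to 135 CPM in stimulated Gpx4-deficient and WT libraries, and it held without any 1 library, but not with limma-voom (adjusted p = 0.0580) or the replicate block nested in genotype (adjusted p = 0.157). Junb differed by -1.26 (adjusted p = 0.0280), Jun by -1.24 (adjusted p = 0.0492), Nr4a1 by -1.28 (adjusted p = 0.0204) and Icos by 0.89 (adjusted p = 0.0439). These 4 calls rested on the full set of libraries: leaving out any 1 library of the WT cells ended each of them, and limma-voom and both fits with a replicate block ended the calls of Junb, Jun, Nr4a1 and Icos. Leaving out any 1 unstimulated Gpx4-deficient library ended the calls of Jun and Icos. Without unstimulated Gpx4-deficient replicate 1 or 2 those of Junb and Nr4a1 ended too. The Jun call also ended with DESeq2 size factors (adjusted p = 0.0549, edgeR) and upper-quartile scaling (adjusted p = 0.0577, edgeR).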

How the results depend on the processing

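For the 9 factors in 5 comparisons, 406 of 423 values under the alternatives other than leaving out a library kept direction and side of the threshold, as did 286 of 324 with a library left out. The stimulation calls of Irf4, Tbx21, Rora and Gata3 held under all of them in both genotypes. Between stimulated genotypes the count of members called was 2, was 0 in the fit of only the 2 groups, and ran from 1 to 3 with a library left out; the cause was not tested. Directions turned for values near 0: Batf between stimulated genotypes was -0.03 and became 0.0155 with DESeq2 size factors, 0.0122 with at least 5 CPM in 3 libraries and 0.0154 with DESeq2. Bcl6 in that comparison was 0.01 and became -1.05 with limma-voom and -0.25 with the replicate block. Id2 on stimulation of WT cells was 0.03 and became -0.0147 with upper-quartile scaling and -0.0085 with no filter. In the interaction Rora became 0.0162 with DESeq2 size factors and 0.0162 with DESeq2, and Bcl6 -0.89 with limma-voom and -0.68 with the nested replicate block. With a library left out, the ranges that crossed 0 were Irf4 -0.077 to 0.14, Tbx21 -0.48 to 0.19 and Bcl6 -0.46 to 0.18 between unstimulated genotypes, Batf -0.11 to 0.13, Gata3 -0.036 to 0.15 and Bcl6 -0.54 to 0.58 between stimulated genotypes, Id2 -0.017 to 0.11 on WT stimulation, and Rora -0.14 to 0.18, Tbx21 -0.46 to 0.21 and Bcl6 -0.48 to 0.67 in the interaction. In the sample titles the numbers 1 to 3 of each genotype recur in both states. The pairing of replicate numbers was checked by the correlation of deviations from group means. For 18 pairs with the same number it lay between -0.0618 and 0.0297, but these include pairs across genotypes, which cannot share an animal. Within a genotype the values were 0.0297, 0.0223 and 0.00757 in WT and -0.00422, 0.0277 and -0.0224 in Gpx4-deficient cells. The numbers were therefore not taken to pair libraries. The replicate block called 0, 2, 4, 6 and 0 members (unstimulated and stimulated genotype comparison, stimulation in WT and in Gpx4-deficient cells, interaction), and the block nested in genotype 4, 5 and 0 in the last 3. Beside these, the replicate block called 3, 171, 1484, 1891 and 5 of all 14827 genes, and the nested block 1265, 1622 and 0. Over all genes, calls between unstimulated genotypes numbered 10 (178 by DESeq2, 21 by limma-voom, 3 with the block, 3 to 14 with a library left out), between stimulated genotypes 337 (1521 by DESeq2, 171 with the block, 22 with only the 2 groups, 117 to 658 with a library left out), on stimulation 1709 in WT (2622 by DESeq2, 3499 with only the 2 groups) and 2266 in Gpx4-deficient cells (3586 by DESeq2, 1022 with only the 2 groups), and in the interaction 30 (379 by DESeq2, 0 by limma-voom, 5 with the block, 0 with the nested block, 2 without any 1 unstimulated WT replicate to 167 without stimulated Gpx4-deficient replicate 2). The median of all genes under limma-voom was -0.21 between stimulated genotypes, -0.26 on stimulation of Gpx4-deficient cells and -0.14 in the interaction. On stimulation of Gpx4-deficient cells it was -0.13 with the replicate block and -0.23 with the nested block, against -0.023 in the main edgeR fit. The nested block gave -0.14 in the interaction. Scaling by DESeq2 size factors or the upper quartile kept the median within 0.1 of that of the edgeR fit. No member was at 0 in a library: the lowest was Bcl6, with 10 counts in stimulated Gpx4-deficient replicate 3, whose total of 27753405 lay within the range of the other libraries.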
